A study of Mus musculus with 6 samples.

Results

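The expression of 10 keratin genes was followed in sorted cells of the mouse ovarian surface, 5 of simple epithelium (Krt7, Krt8, Krt18, Krt19 and Krt20) and 5 of basal or stressed stratified epithelium (Krt5, Krt14, Krt17, Krt6a and Krt6b). Every probe set annotated to exactly 1 of these 10 symbols was taken, which gave 17 of the 45037 probe sets, 7 of simple and 10 of basal or stress keratins. The cells were primary ovarian surface epithelium of virgin FVB/N mice aged 8 weeks, held in culture for 24 hours and stained with ALDEFLUOR, which makes cells with active aldehyde dehydrogenase (ALDH) fluoresce. Cells treated with the ALDH inhibitor diethylaminobenzaldehyde and unstained cells served as controls of the stain. The stained cells were sorted into ALDH-positive and ALDH-negative cells, so that strain, age and culture were shared and ALDH activity separated the groups. There were 3 separate pools, each of 10 mice, and both fractions of each pool were hybridised, on 6 Affymetrix whole-genome mouse arrays in all. A pool mixes animals, and the cells were released from dissected ovaries by digestion, which can also free cells from below the surface.

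Keratins are the intermediate filament proteins of epithelia. Each filament is built from a type I keratin (here Krt14, Krt17, Krt18, Krt19 and Krt20) and a type II keratin (here Krt5, Krt6a, Krt6b, Krt7 and Krt8). Krt8 and Krt18 form the filaments of single-layered epithelia, to which Krt7 and Krt19 add in ducts, mesothelium and the ovarian surface. Krt20 belongs to gut epithelium, urothelium and Merkel cells. Krt5 and Krt14 form the filaments of the basal layer of stratified epithelium, and Krt6a, Krt6b and Krt17 are induced there by wounding and stress.

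The start regions of Krt8, Krt18 and Krt7 are shown because these genes lay higher together in ALDH-positive cells, and that of Krt5 as the basal counterpart. The windows run from 250 bases before to 50 after the RefSeq start on GRCm38.p6, 5′ to 3′ on the strand of the gene. They lie at chr15:102004293-102004592 on the minus strand for Krt8, chr15:102027966-102028265 on the plus strand for Krt18, chr15:101412153-101412452 on the plus strand for Krt7 and chr15:101712856-101713155 on the minus strand for Krt5. Capitals mark matches on either strand to TATAAA (the TATA element), GGGCGG (a GC box), CACCTG (an E-box that binds repressors such as Snail and Zeb proteins) and TGANTCA (an AP-1 element).
Krt8: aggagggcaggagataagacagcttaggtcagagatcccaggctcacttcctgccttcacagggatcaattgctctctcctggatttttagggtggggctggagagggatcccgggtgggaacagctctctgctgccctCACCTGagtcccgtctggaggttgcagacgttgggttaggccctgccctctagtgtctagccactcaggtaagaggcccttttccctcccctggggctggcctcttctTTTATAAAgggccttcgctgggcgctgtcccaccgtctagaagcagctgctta
Krt18: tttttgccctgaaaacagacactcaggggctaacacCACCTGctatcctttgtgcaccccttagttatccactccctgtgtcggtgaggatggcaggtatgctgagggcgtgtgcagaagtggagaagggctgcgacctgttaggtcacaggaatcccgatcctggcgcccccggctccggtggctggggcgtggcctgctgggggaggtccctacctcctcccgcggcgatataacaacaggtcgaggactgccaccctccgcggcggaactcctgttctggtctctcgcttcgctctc
Krt7: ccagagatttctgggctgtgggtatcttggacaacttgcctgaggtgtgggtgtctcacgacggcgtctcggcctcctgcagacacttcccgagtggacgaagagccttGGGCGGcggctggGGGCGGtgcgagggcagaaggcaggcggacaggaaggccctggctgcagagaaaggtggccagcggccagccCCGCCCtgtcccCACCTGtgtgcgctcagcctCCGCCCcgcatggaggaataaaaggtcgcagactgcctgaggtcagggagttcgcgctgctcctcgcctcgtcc
Krt5: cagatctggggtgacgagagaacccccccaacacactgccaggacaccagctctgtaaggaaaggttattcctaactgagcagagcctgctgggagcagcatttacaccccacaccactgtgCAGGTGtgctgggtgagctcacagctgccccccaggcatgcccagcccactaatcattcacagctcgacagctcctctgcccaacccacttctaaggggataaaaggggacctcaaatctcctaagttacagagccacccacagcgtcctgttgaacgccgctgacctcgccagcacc
All 4 windows held CACCTG, which was present in 20.2% of the 32851 windows of that length in the table. The 4 GC boxes were in Krt7; GGGCGG was present in 35.7% of all windows. Of the windows shown, TATAAA occurred in Krt8, on both strands with overlap, and in 13.6% of all windows. The Krt8 matches began at -3 and -1 and so lay across the RefSeq start. Whether they act as a TATA element was not tested. TGANTCA occurred in none of these 4 and in 7.81% of all. Windows were matched for 6 of the 10 genes, these 4 and Krt14 and Krt20, whose windows are not shown. CACCTG was in neither of those, so that 4 of the 6 held it, and Krt20 held TATAAA, at -29. Krt8 and Krt18 are neighbours on chromosome 15, with 0 protein-coding genes between them.

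Unless stated otherwise, values are log2 signals after quantile normalization. Those of control probe sets are given as deposited. A difference is ALDH-positive minus ALDH-negative cells of the same pool. Probe sets in the lower 40% by mean, with a mean of 2.73 or less, were left out of the test. This left 27022 probe sets, among them 11 of the 17 keratin probe sets and 8 of the 10 genes. A level at or below 2.73 is called dim here. Levels of different probe sets cannot be set against each other, so the contrast of simple with basal keratins rests on their differences between fractions. In sorted bulk cells, fewer cells of a type and less RNA per cell cannot be told apart.

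One array differed from the rest, that of ALDH-negative cells in pool 2. It correlated with the others at 0.558 to 0.679 across probe sets, while the other arrays correlated at 0.85 to 0.974. Its beta-actin control read 5.03, against 9.56 to 11.04 elsewhere. It gave the highest of the 6 readings for 37.4% of all tested probe sets. Differences are therefore also given without pool 2. The ALDH-positive arrays of pools 1 and 2 were the most alike (r = 0.974), and their probe sets differed with an SD of 0.490, against 1.07 between those of pools 1 and 3. The 5′ control of Gapdh was dimmest in pool 3 (6.63 and 5.20, against 7.92 to 10.30 elsewhere). The part of these differences between arrays in the keratin values was not tested.

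The simple keratins Krt7, Krt8, Krt18 and Krt19 read higher in ALDH-positive than in ALDH-negative cells of every pool, by at least 2-fold in each. All 6 of their probe sets showed this, and in all 6 the lowest ALDH-positive array lay above the highest ALDH-negative array. Of all tested probe sets, 11.5% were higher in all 3 pools, 3.49% did not overlap with ALDH-positive cells higher, and 0.844% were at least 2-fold higher in all 3 pools. None of the 6 passed limma's test after Benjamini-Hochberg adjustment over all probe sets. That test called 0 of 27022 (0.0%) in either direction. At an unadjusted p under 0.05 it took 552 higher (2.04%) and 109 lower (0.403%), and all 6 were among the higher. With estimated array weights, the same test called 1478 higher (5.47%), the 6 among them, and 1475 lower (5.46%). The basal or stress probe sets 1423935_x_at of Krt14 and 1422588_at of Krt6b were also called higher there. The weights were 1.298, 0.158 and 4.87 for pools 1, 2 and 3, so that fit rested mostly on pool 3.

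**Figure D1:**
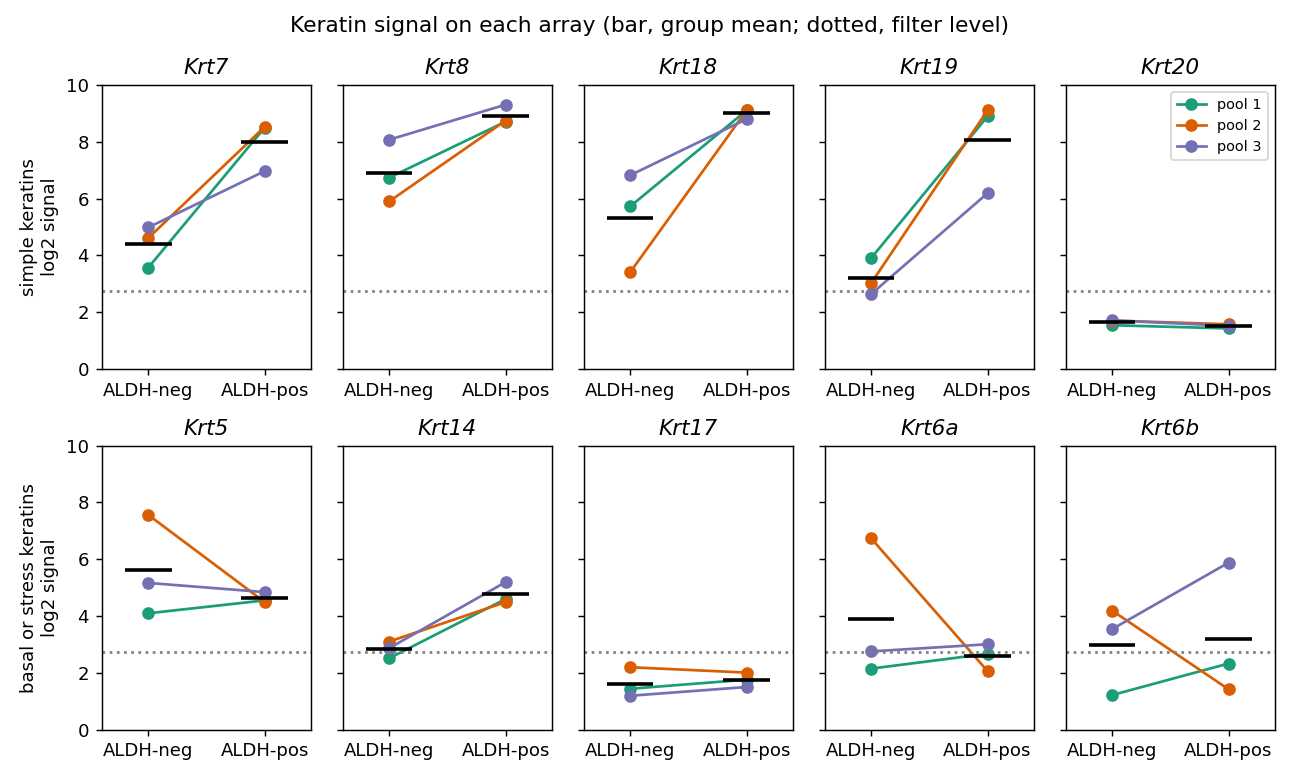
Log2 signal (vertical axis) of the 10 keratin genes in ALDH-negative and ALDH-positive cells, with the brightest probe set for each gene; lines join the arrays of 1 pool, bars are means of 3 arrays and the dotted line is the filter level of 2.73. Krt7, Krt8, Krt18 and Krt19 slope upward in all 3 pools, while Krt5 and Krt6a fall steeply in pool 2, where the ALDH-negative array read 7.56 and 6.74.

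Krt19, a type I keratin of ducts and mesothelium, had the widest difference of the members. Its probe set 1417156_at read 3.90, 3.02 and 2.64 on the ALDH-negative arrays of pools 1, 2 and 3, and 8.89, 9.10 and 6.19 on the ALDH-positive arrays. The ALDH-positive array of pool 3 was the lowest of its group and still 2.29 above the highest ALDH-negative array. The mean difference was 4.88 (limma SE 0.74, 95% interval 3.15 to 6.60, n = 3 pools), a 29.4-fold ratio, with limma adjusted p = 0.819. Without pool 2 it was 4.27. The ALDH-negative array of pool 3 was dim, so the ratio there is against background signal. Among the tested probe sets, 0.0111% had a larger mean difference.

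Krt7, a type II keratin of simple and ductal epithelium, read 3.57, 4.61 and 4.98 on the ALDH-negative arrays and 8.50, 8.52 and 6.97 on the ALDH-positive arrays (1423952_a_at). As with Krt19, the ALDH-positive array of pool 3 was lower than those of the other pools, and the groups did not overlap. The difference was 4.93 in pool 1, 3.92 in pool 2 and 1.98 in pool 3, with a mean of 3.61 (limma SE 0.77, 95% interval 1.80 to 5.42, adjusted p = 0.895). The mean ratio was 12.2-fold, and without pool 2 it was 11.0-fold. Of Krt7, Krt8, Krt18 and Krt19, Krt7 was the gene for which pool 1 rather than pool 2 gave the largest difference.

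Krt18, the type I partner of Krt8, read 5.72, 3.40 and 6.82 on the ALDH-negative arrays and 9.11, 9.11 and 8.80 on the ALDH-positive arrays (1448169_at). The ALDH-positive arrays lay close together (SD 0.18), and the spread was among the ALDH-negative arrays (SD 1.74), with the array of pool 2 lowest. The mean difference of 3.69 (limma SE 0.85, 95% interval 1.71 to 5.67, adjusted p = 0.895) was a 12.9-fold ratio and fell to 6.41-fold without pool 2. Pool 2 alone gave 52.0-fold, and pool 3 gave 3.94-fold.

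Krt8, the type II partner of Krt18, was measured by 3 probe sets, all brighter in ALDH-positive cells. The brightest, 1435989_x_at, read 6.74, 5.90 and 8.07 on the ALDH-negative arrays and 8.71, 8.74 and 9.31 on the ALDH-positive arrays. Here pool 3 was the highest pool in both fractions, and the groups were separated by 0.64. Its mean difference was 2.02 (limma SE 0.68, 95% interval 0.44 to 3.60, adjusted p = 0.895).
The other probe sets differed by 3.40 (1420647_a_at) and 2.85 (1423691_x_at). On 1420647_a_at the ALDH-negative array of pool 2 read 2.96 against 6.64 and 7.96 in pools 1 and 3. Without pool 2 the 3 probe sets differed by 1.60, 2.02 and 2.19, a narrower range than the 2.02 to 3.40 over all pools. Probe sets with the suffix _x_at hold probes that also match other transcripts, and their share in the signal was not tested.

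Within ALDH-positive cells the simple keratins did not follow 1 pattern across pools. From pool 1 to pool 2 each of these 6 probe sets moved by little, for example 9.12 and 9.12 for Krt8 (1420647_a_at). In pool 3, Krt19 at 6.19 and Krt7 at 6.97 were below both other pools, Krt18 at 8.80 was slightly below, and Krt8 at 9.51 (1420647_a_at) and 9.31 (1435989_x_at) was above. The remaining Krt8 probe set, 1423691_x_at, was lower in pool 3, at 7.63 against 8.50 and 8.45. Krt20, the keratin of gut and urothelium, was dim on all 6 arrays, at 1.54 to 1.71 on the ALDH-negative arrays and 1.42 to 1.57 on the ALDH-positive arrays. It was not tested, and its pool differences were -0.11, -0.13 and -0.19.

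**Figure D2:**
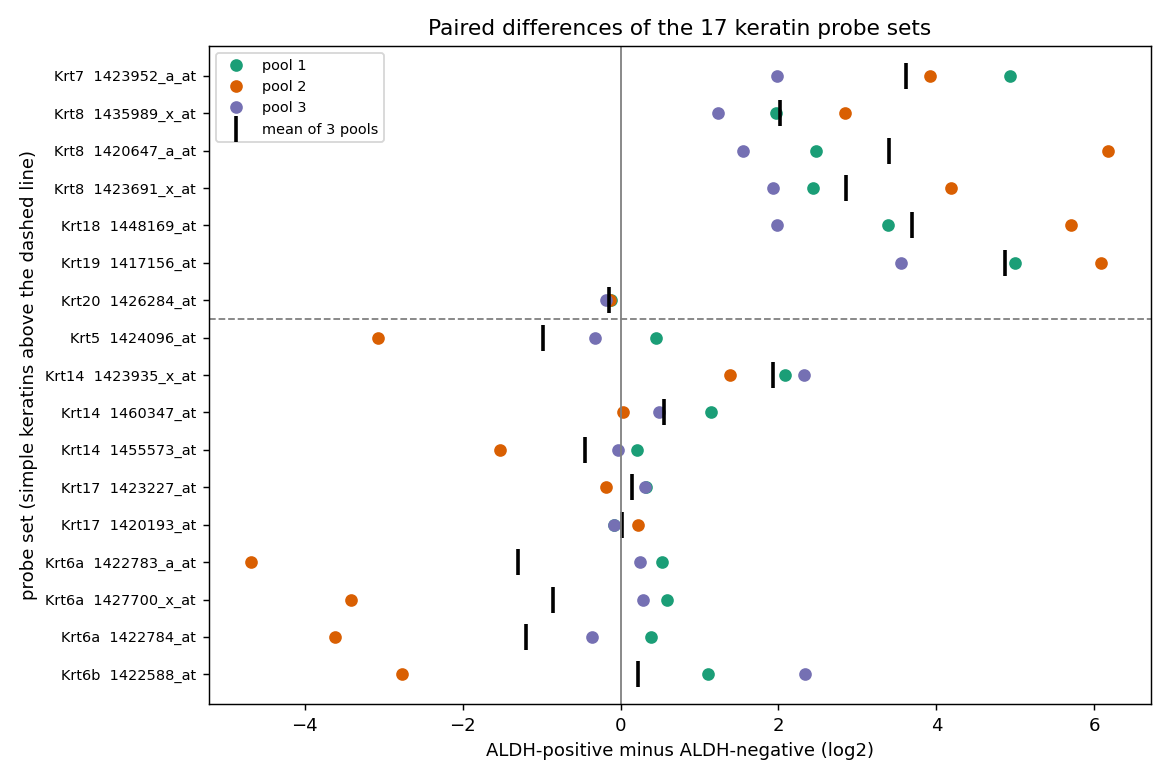
ALDH-positive minus ALDH-negative log2 difference (horizontal axis) in each pool for the 17 keratin probe sets, simple keratins above the dashed line; black ticks are means of 3 pools. Every point of Krt7, Krt8, Krt18 and Krt19 lies to the right of 0, and the points left of -2 belong to Krt5, Krt6a and Krt6b in pool 2.

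The basal and stress keratins showed no such common shift over all 3 pools, and their largest falls lay in pool 2, with the odd ALDH-negative array. Without pool 2 the brightest probe set of each gene differed by 0.07 (Krt5) to 2.21 (Krt14). The median was then 0.39, against 2.68 for the simple keratins. Of the 10 basal or stress probe sets, 2 were higher in all 3 pools, both of Krt14, and 0 were lower in all 3. Of all tested probe sets, 11.5% were higher and 10.8% were lower in all 3. In pool 2, 6 of the 10 were at least 2-fold lower in ALDH-positive cells, as were 34.0% of all tested probe sets. On the ALDH-negative array of pool 2, 6 of the 10 gave the highest of the 6 readings, against 0 of the 7 simple keratin probe sets and 38.7% of all 45037 probe sets.

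Krt5, the type II keratin of the basal layer, read 4.10, 7.56 and 5.17 on the ALDH-negative arrays and 4.55, 4.50 and 4.84 on the ALDH-positive arrays of pools 1 to 3 (1424096_at). The groups overlapped, and the ALDH-negative array of pool 2 was far above the other readings. The mean difference was -0.98 (limma SE 0.84, 95% interval -2.94 to 0.99, adjusted p = 0.895), and without pool 2 it was 0.07. In the values as deposited that array read 6.25, and the mean difference was -0.515.

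Krt14, the type I partner of Krt5, was the basal member with a difference of 1 sign in every pool. Probe set 1423935_x_at read 2.51, 3.10 and 2.87 on the ALDH-negative arrays and 4.60, 4.49 and 5.20 on the ALDH-positive arrays, with no overlap. Its mean difference of 1.93 (limma SE 0.65, 95% interval 0.42 to 3.45, adjusted p = 0.895) was 3.82-fold, and 4.61-fold without pool 2. The ALDH-negative array of pool 1 was dim, so the ratio there is against background signal. The other Krt14 probe sets did not show that separation. On 1460347_at the mean difference was 0.55, with 0.026 in pool 2, and on the dim 1455573_at it was -0.45. In pools 1 and 3 these probe sets differed by 1.14 and 0.48, and by 0.21 and -0.03. Since the separating probe set has the suffix _x_at, signal from related type I keratins was not tested. A probe set assigned to both Krt14 and Krt17 was not used here.

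Krt6a, a type II keratin of stressed epithelium, read 2.15, 6.74 and 2.76 on the ALDH-negative arrays and 2.67, 2.06 and 3.01 on the ALDH-positive arrays (1422783_a_at), of which 1 ALDH-negative and 2 ALDH-positive arrays were dim. The probe set passed the filter through the ALDH-negative reading of pool 2. Its pool 2 difference was -4.68, while pools 1 and 3 gave 0.52 and 0.25. The mean of -1.30 (limma SE 1.08, 95% interval -3.83 to 1.22, adjusted p = 0.895) changed to 0.39 without pool 2. In the values as deposited the ALDH-negative array of pool 2 read 5.66, and the mean difference was -1.01. The other Krt6a probe sets, too dim to be tested, also had pool 2 differences below -3 (-3.41 and -3.61) and pool 1 differences above 0 (0.58 and 0.39).
Krt6b, the adjacent and closely related gene, read 1.22, 4.19 and 3.54 on the ALDH-negative arrays and 2.33, 1.42 and 5.88 on the ALDH-positive arrays (1422588_at). The highest reading was the ALDH-positive array of pool 3, while 1 ALDH-negative and 2 ALDH-positive arrays were dim. The mean difference was 0.23 (limma SE 1.02, 95% interval -2.15 to 2.61, adjusted p = 0.965), and 1.73 without pool 2. Krt17, a type I keratin of wounded epithelium, was dim on all 6 arrays with both probe sets, which ranged from 0.80 to 2.20.

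The contrast of the keratin groups was taken with the brightest probe set of each gene. The median difference of the 5 simple keratins was 3.61, and in pools 1, 2 and 3 it was 3.38, 3.92 and 1.98. That of the 5 basal or stress keratins was 0.15, with 0.52, -2.77 and 0.31. The median over all tested genes was -0.08, with 0.01, -0.18 and 0.03. Simple exceeded basal or stress keratins by 2.86 in pool 1, 6.69 in pool 2 and 1.67 in pool 3, and by 2.30 in the medians without pool 2. These medians are a description of members chosen with results of these arrays known.

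**Figure D3:**
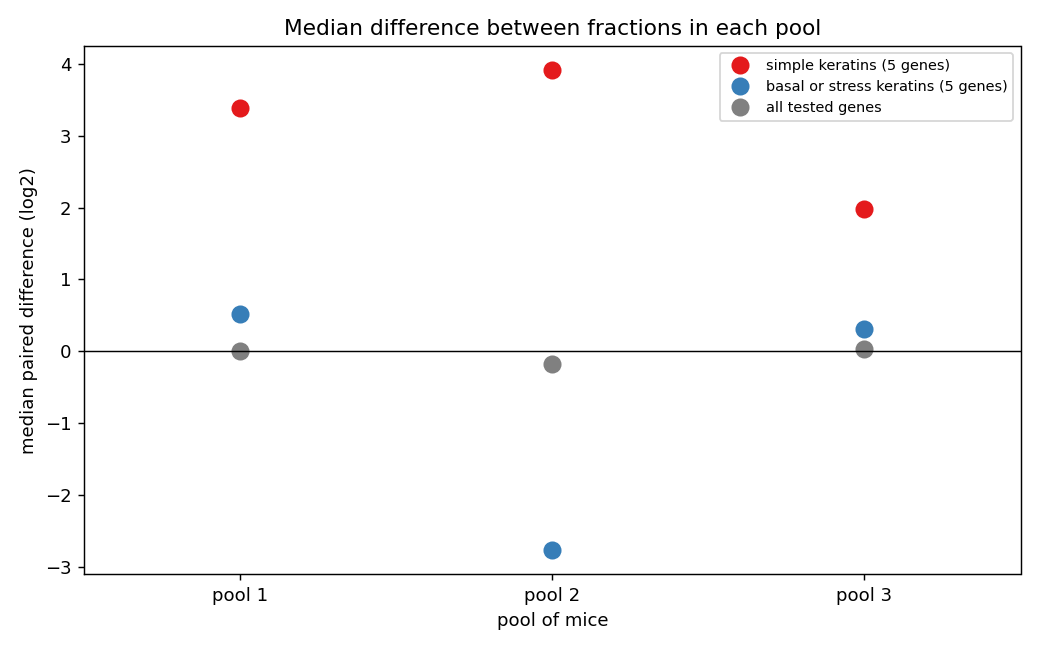
Median paired log2 difference between fractions (vertical axis) in each pool for 5 simple keratins, 5 basal or stress keratins and all tested genes. The simple keratins lie at 3.38, 3.92 and 1.98, and the basal or stress keratins lie below 0 in pool 2 (-2.77) and near 0.5 and 0.3 in the others.

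Among other keratin genes on the array, no second set was higher in every pool as most of the simple keratins were. Of 36 further keratin genes 15 were tested, and none was higher or lower in all 3 pools. Of all tested probe sets, 11.5% were higher and 10.8% were lower in all 3 pools. Krt80, a widely expressed type II keratin, read 2.85, 4.46 and 3.21 on the ALDH-negative arrays and 3.86, 3.44 and 5.67 on the ALDH-positive arrays. Like Krt6b, it was highest in the ALDH-positive array of pool 3 (difference 0.82, limma SE 0.82, adjusted p = 0.895, and 1.73 without pool 2). The 14 tested keratins of stratified epithelium and hair had a median difference of -0.45, and of 0.36 without pool 2. Krt42, a type I keratin, differed by -3.14 in pool 2 and by 0.18 and -0.51 in pools 1 and 3. On the ALDH-negative array of pool 2, 28 of the 36 genes (77.8%) gave the highest of the 6 readings. A gene that reads highest there cannot be higher in ALDH-positive cells of pool 2. The count over all 3 pools therefore cannot show whether these genes rise as the simple keratins do.

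**Figure D4:**
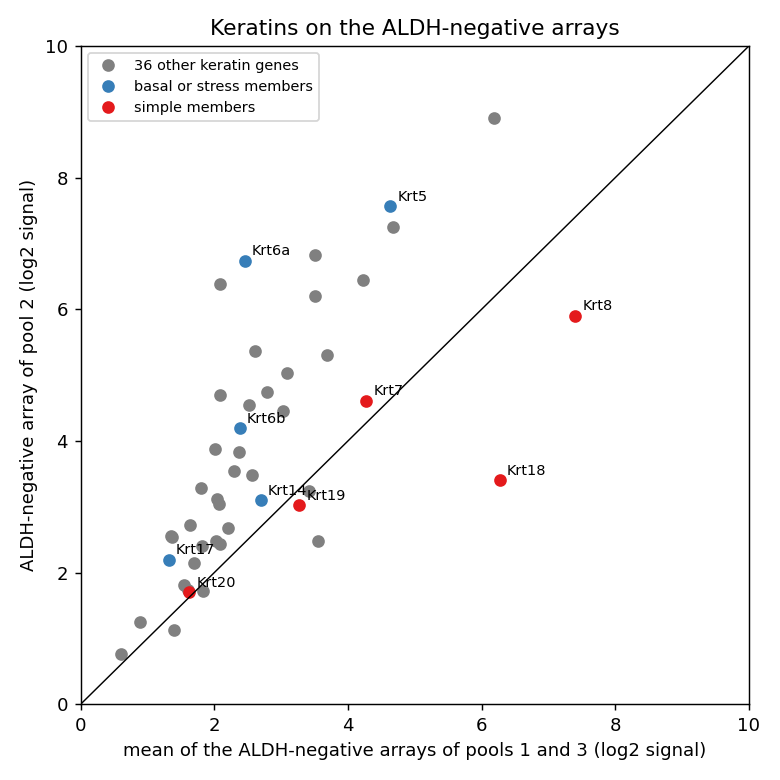
Log2 signal of keratin genes on the ALDH-negative array of pool 2 (vertical axis) against the mean of the ALDH-negative arrays of pools 1 and 3 (horizontal axis), with the line of equal signal. Krt5 and Krt6a lie above the line together with many of the 36 other keratin genes, while Krt8 and Krt18 lie below it.

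Genes whose products anchor keratin filaments did not shift as a group. Of 15 tested genes of desmosomes and hemidesmosomes, 0 passed, 4 were higher and 1 was lower in all 3 pools. Of all tested probe sets, 11.5% were higher and 10.8% were lower in all 3 pools. The median difference of the 15 genes was 0.63 (0.16 without pool 2). Perp, a desmosome-associated membrane protein, read 4.86, 2.36 and 5.03 on the ALDH-negative arrays and 6.58, 6.47 and 6.96 on the ALDH-positive arrays. Dsp encodes desmoplakin, the linker that ties keratin to desmosomes. It was the gene of this list that read lower in every pool, at 5.99, 9.70 and 8.41 against 4.93, 5.20 and 6.84 (difference -2.38, limma SE 0.84, adjusted p = 0.895, and -1.32 without pool 2). Jup, which encodes plakoglobin, differed by 1.07 and was above 0 in each pool, at 0.70, 1.29 and 1.21. Pkp2, which encodes plakophilin-2, differed by 4.18 in pool 2 and by 0.25 and -0.16 in pools 1 and 3.

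The other intermediate filaments likewise gave 0 calls among 12 tested genes, with a median of -0.20 (0.48 without pool 2). Vim, the vimentin of mesenchymal and cultured cells, was bright in both fractions, at 9.68, 11.17 and 10.79 against 10.26, 10.24 and 10.98, and the groups overlapped. Synm, which encodes synemin, was lower in every pool (-0.36, -2.67 and -2.10), and Lmna, which encodes lamins A and C of the nuclear lamina, was higher in every pool (0.75, 3.10 and 0.94). Of 16 tested partners and modifiers of keratin filaments, 0 passed and the median was 0.38 (0.07 without pool 2). In every pool 4 of them were higher and 1, Tradd, was lower, against 11.5% and 10.8% of all tested probe sets. The transglutaminase Tgm2 had the smallest p of that list and differed by 2.18, 1.93 and 0.16 in pools 1 to 3.

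Of 16 tested epithelial adhesion genes and regulators, 6 were higher and 1 was lower in every pool, and 0 passed (median 0.13, and 0.50 without pool 2). The shares of all tested probe sets higher and lower in every pool were 11.5% and 10.8%. Cd24a was the gene lower in every pool (-0.83, -2.54 and -0.01). Muc16, a mucin of surface epithelium and mesothelium, read 1.76, 1.00 and 1.20 on the ALDH-negative arrays and 4.70, 4.01 and 3.73 on the ALDH-positive arrays, so that its ALDH-negative readings were dim. It passed the filter through its ALDH-positive readings. Cdh1, the epithelial cadherin, differed by 2.76 and 3.11 in pools 1 and 2 and by 0.08 in pool 3. Cldn3, a tight junction claudin, differed by 2.57, 0.44 and 1.12. Of 11 tested markers of stratified epithelium and stress, 0 passed (median -0.18, and 0.38 without pool 2). In every pool 1 was higher, Lgals7 (1.01, 0.92 and 0.64), and 1 was lower, Sprr1a (-0.01, -0.32 and -0.35). Trp63, the regulator of stratified epithelium, read 3.26, 4.71 and 3.30 on the ALDH-negative arrays and 3.37, 2.90 and 2.90 on the ALDH-positive arrays. S100a14 resembled Krt6b and Krt80 in its ALDH-positive array of pool 3, which read 6.01 while the other arrays read 2.27 to 2.99.

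Most markers of the labelled tissue moved together with the simple keratins. Leaving out the keratins, 12 of 14 tested genes of surface epithelium and mesothelium were higher in every pool and 0 passed. The share of all tested probe sets higher in every pool was 11.5%. The exceptions were Nkain4 (0.483, -1.961 and -0.105 in pools 1 to 3) and Bnc2 (1.443, -0.295 and 0.111). The mean level of this list over 15 genes was 3.63 to 4.07 on the ALDH-negative and 6.23 to 6.49 on the ALDH-positive arrays. Bnc1, a transcription factor of the surface epithelium, was dim on all ALDH-negative arrays (1.48 to 1.94), as were Muc16 and Lrrn4. These genes passed the filter through their ALDH-positive readings, so that their place among the 12 was largely fixed in advance. Wt1, a transcription factor of the coelomic epithelium, was above the filter level on all ALDH-negative arrays (5.10 to 5.45).

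Markers of other ovarian cells were read beside the keratins in both fractions, and their part in the keratin values was not tested. The mean level of the oocyte list was dim on every array, and those of the endothelial and leukocyte lists were dim on some arrays. Of all tested probe sets, 11.5% were higher and 10.8% were lower in every pool. In the theca, interstitial and luteal list, 5 of 6 tested genes were higher in the mean and 0 in every pool. This rested on pool 2: without it all 6 lay below 0, and the median difference of 0.68 turned to -0.665. Cyp11a1, the enzyme that starts steroid synthesis, read 11.44, 4.09 and 8.42 on the ALDH-negative arrays and 10.69, 10.68 and 7.28 on the ALDH-positive arrays. The list had a mean level of 4.78 to 8.19 on the ALDH-negative arrays and 7.17 to 7.67 on the ALDH-positive arrays. The granulosa list had 2 of 9 tested genes higher and 2 lower in every pool (median 0.89, and -0.09 without pool 2), at mean levels of 3.61 to 5.99 and 4.77 to 5.69. In the stroma list 5 of 10 were higher and 0 lower in every pool, at 3.91 to 4.79 and 5.54 to 5.68 (median 1.32, and 1.22 without pool 2). In the smooth muscle list 3 of 6 were higher and 0 lower, at 3.39 to 4.50 and 4.33 to 4.89 (median 1.14, and 1.42 without pool 2). Endothelial markers (2 of 5 higher and 1, Eng, lower in every pool) lay at 2.63 to 3.30 and 2.76 to 2.96, with a median of 0.06, and 0.98 without pool 2. Leukocyte markers (0 of 5 higher and 1, Csf1r, lower in every pool) lay at 2.43 to 3.72 and 2.24 to 3.12, with a median of -0.56, and 0.31 without pool 2. Oviduct epithelium, another simple epithelium, had 0 of 3 higher and 0 lower in every pool, at 3.09 to 3.81 and 3.32 to 3.97. Oocyte markers had 1 tested gene of 9, at 1.64 to 2.57 and 1.67 to 2.06. Too dim to be tested were 8 of 9 oocyte, 4 of 9 leukocyte and 4 of 9 endothelial markers, against 1 of 10 granulosa and 1 of 7 theca, interstitial and luteal markers.

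Genes with a profile close to that of the keratins were found by the root mean square distance between profiles over the 6 arrays, each centred on its mean, among 12814 tested genes. All these profiles share the same arrays. Nearest to the mean profile of the 5 simple keratins were Fam107b (distance 0.32), the dimethylarginine hydrolase Ddah1 (0.39), the lysyl oxidase Loxl1 (0.40), Muc16 (0.42) and Zcchc3 (0.43). Fam107b read 4.04, 3.05 and 4.03 on the ALDH-negative arrays and 6.57, 6.11 and 6.01 on the ALDH-positive arrays. Over pools 1 and 3 alone these genes ranked 3, 6, 27, 30 and 33.
Nearest to Krt7 were Loxl1 (0.54), the sialomucin Podxl (0.62) and the uroplakins Upk3b (0.65) and Upk1b (0.67). Krt19 had no gene closer than Gbp2, a guanylate-binding protein (0.79), followed by Upk1b (0.95), the chemokine Ccl2 (0.97) and the retinaldehyde dehydrogenase Aldh1a2 (0.98). Gbp2 shared the low ALDH-positive reading of pool 3, at 3.52 against 7.37 in pool 2.
Near Krt18 lay the adaptor Grb10 (0.26), the collagen gene Col3a1 (0.32), the actin-associated protein Palld (0.40) and the smooth muscle actin Acta2 (0.46). Near Krt8 lay Dcbld2 (0.29), Fam110c (0.30), the imprinted gene Peg3 (0.32), the growth factor Csf1 (0.32) and the receptor Met (0.34). Near Krt14 lay Pdpn, the podoplanin of mesothelium and lymphatic vessels (0.26), Mpdz (0.29), the prostacyclin synthase Ptgis (0.29), Dclk1 (0.29) and Tkfc (0.29). Over pools 1 and 3 alone these neighbours of Krt14 ranked 18, 26, 17, 16 and 4.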

How the data were processed

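The authors' deposited table holds 45101 probe sets by 6 arrays. The values as deposited by the authors were taken as log2 signal because they run from 0.035 to 13.06; how the authors summarised, background-corrected and normalized them is not given in the sources used. Per the labels' protocols, amplified cDNA (Ovation Pico WTA) carried the biotin label, and amplification can lose 5′ signal unevenly. After 64 control probe sets were left out, array medians differed by 0.46, so the arrays were quantile normalized, which can shift bright genes where 1 array has a narrow distribution.

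Gene names come from GEO's annotation of the platform, checked by Entrez identifier in RefSeq's gene table (GRCm38.p6). Of 45037 probe sets, 34945 had 1 symbol, 932 several and 9160 none.

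The test was limma 3.58.1 (R 4.3.3), blocked by pool, with Benjamini-Hochberg adjustment over 27022 probe sets at 0.05, tested on simulated data. The pairing comes from the series design, a paired analysis of 3 pools. Deviations from group means correlated at 0.383, -0.187 and 0.352 within pools, and at up to 0.421 between pools. The p-values measure spread between pools, with the variance of each probe set drawn toward that of all tested probe sets. In the fit without pool 1, each tested keratin probe set had the same limma SE of 1.239. The number of arrays limits the precision. The SAM analysis named in the design was not run.

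Genes named are the 10 keratins, up to 4 tested genes of smallest unadjusted p in each list and up to 5 of nearest profile. Vim, Lrrn4, Wt1, Nkain4, Bnc2, Cd24a, Sprr1a and Tradd were added after their values were seen. Members and lists were chosen with earlier results of these data known. Alternatives were the deposited and median-centred values, no block, other filters, array weights, the mean over a gene's probe sets and arrays left out.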

Additional observations from a re-analysis of the deposited data

How the results depend on the processing

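All 6 tested probe sets of Krt7, Krt8, Krt18 and Krt19 kept a positive difference under every alternative run. None was called over all probe sets, except with array weights, which gave pools 1, 2 and 3 weights of 1.298, 0.158 and 4.87. With those weights limma called 1478 probe sets higher and 1475 lower, 8 of them keratin probe sets (the 6, 1423935_x_at of Krt14 and Krt6b), and the simple keratin median was 2.36. Without the replicate block the numbers of probe sets called higher and lower stayed at 0 and 0. Leaving out 1 pool, or the pool 2 ALDH-negative array together with the block, gave 0 to 4 higher and 0 to 3 lower; the calls came without pool 1. The simple keratin median then ranged from 2.68 to 4.42 and the basal or stress median from -0.83 to 0.44.

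The signs of Krt5 and Krt6a turned without pool 2, and that of Krt6b turned when pool 1 or pool 3 was left out. With 1 pool left out, Krt5 ranged from -1.695 (without pool 1) to 0.066 (without pool 2), Krt6a (1422783_a_at) from -2.212 to 0.386 in the same order, and Krt6b from -0.83 (without pool 3) to 1.725 (without pool 2), with -0.216 without pool 1. Krt6a differed by 0.127 with neither the block nor the pool 2 ALDH-negative array, and by 0.184 with array weights. In the values as deposited the basal or stress median was -0.06 and the simple median 3.82. Median centring moved the median of all tested probe sets to 0.22, against -0.04 after quantile normalization, and gave a simple median of 3.99. Dim probe sets (Krt17, Krt20) carry signal too near background for a direction.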
